A study of Homo sapiens with 6 samples.

Results

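The 10 genes described here encode the vascular endothelial growth factors VEGFA, VEGFB and VEGFC, their receptors FLT1 and KDR, the neuropilin co-receptors NRP1 and NRP2, the angiopoietins ANGPT1 and ANGPT2 and the angiopoietin receptor TEK. They were taken by gene symbol from a count table of 58735 rows, and each symbol matched 1 row. The genes were chosen by symbol with their counts under TAK1 shRNA and scrambled shRNA already known, so their values in that comparison are given as a description, with standard errors (SE) and without p-values. Whether one of these genes passed the thresholds given below is likewise only a description. All 10 are accounted for, and 8 of the 10 genes had enough reads to enter the fit over 15935 genes.

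RD is an established cell line of embryonal rhabdomyosarcoma (ERMS), a tumor of cells with skeletal muscle features. RD cultures were transduced with lentivirus carrying either a scrambled shRNA (control, n = 3) or TAK1 shRNA (n = 3), and the study's text states that construct 1 of its TAK1 shRNAs was sequenced. All 6 cultures thus carried a lentiviral shRNA vector, and the knockdown rests on 1 target sequence in 1 cell line. Total counts ran from 28839898 to 34469323 per culture, and levels are given in CPM, counts scaled to the normalized library size. MAP3K7, the TAK1 gene, stood at 77.9, 76.5 and 77.6 CPM with scrambled shRNA and at 30.5, 33.6 and 29.9 CPM with TAK1 shRNA. Of 12 markers of the muscle lineage, 10 had a mean of at least 1 CPM, with MYOD1 and MYOG among them and MYF5 at 0 counts.

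VEGF ligands are secreted dimers that bind receptor tyrosine kinases on blood and lymphatic endothelium. FLT1 is VEGF receptor 1, bound by VEGFA, VEGFB and placental growth factor, and it is also made as a soluble form that traps ligand. KDR is VEGF receptor 2, the main signaling receptor for VEGFA. VEGFC signals mainly through FLT4, the lymphatic VEGF receptor 3. Neuropilins bind VEGFs and class 3 semaphorins and form complexes with VEGF receptors and plexins. ANGPT1 activates the receptor TEK, also known as TIE2, whereas ANGPT2 acts on the same receptor as an antagonist or a weak agonist, depending on context. Tumor cells often secrete such ligands, while KDR and TEK are best known from endothelium.

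In TAK1 knockdown RD cells the TEK ligand ANGPT2 and the co-receptor NRP2 were lower and the lymphatic growth factor VEGFC was higher. ANGPT2 was at 0.254 and NRP2 at 0.532 of the control level, and VEGFC at 1.32 times the control level. These 3 of the 8 tested genes passed both thresholds of the comparison, which are an adjusted p under 0.05 and a log2 fold change of 0.25 or more in either direction. Across all genes tested 23.1% passed, 11.8% as higher and 11.3% as lower in TAK1 knockdown cells. Higher genes made up 51.0% of these calls, and 62.9% with scaling by library size alone. VEGFA, VEGFB, FLT1, NRP1 and TEK did not pass, and KDR and ANGPT1 had too few reads to be tested. The median log2 fold change was -0.36 over the 8 tested genes and 0.018 over all genes tested, and 7 of the 8 lay below 0. The 2 groups of cultures did not overlap for 5 of the 8 genes, namely ANGPT2, NRP2, TEK, VEGFA and VEGFC, against 43.9% of all genes tested. VEGFC alone was higher without overlap (21.6% of all genes), and 4 were lower (22.2%). In bulk RNA, fewer cells that express a gene and less RNA in each cell cannot be told apart.

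**Figure D1:**
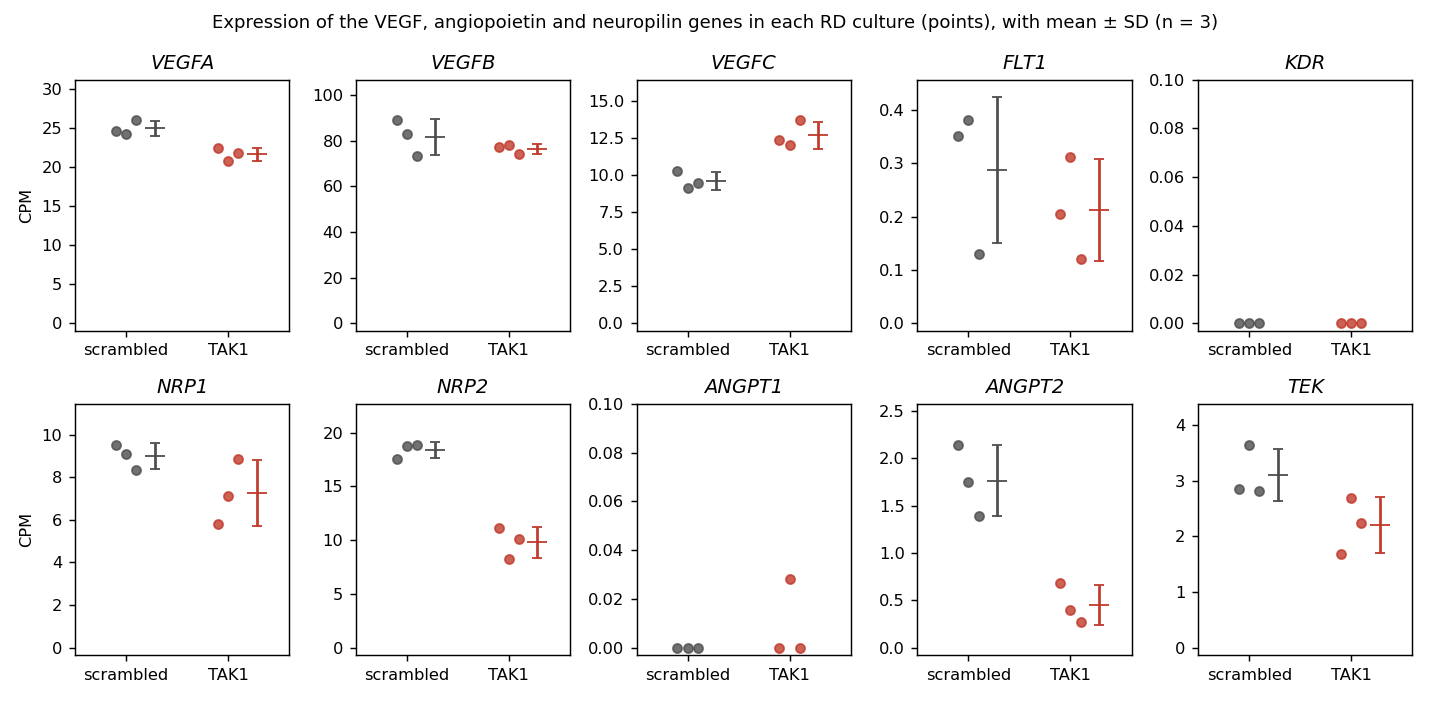
Expression in CPM (vertical axes from 0, a separate scale for each gene) in each of the 3 scrambled shRNA and 3 TAK1 shRNA cultures (points), with the mean and SD beside them where the gene was tested. The NRP2 points lie between 17.5 and 18.9 CPM in control and between 8.24 and 11.1 CPM in TAK1 knockdown cultures, while KDR lies at 0 in all 6.

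Among the VEGF ligands, VEGFC was the only member with a positive log2 fold change. VEGFC, which drives lymphatic vessel growth, reached 10.3, 9.11 and 9.44 CPM in control and 12.3, 12.0 and 13.7 CPM in knockdown cells. Every knockdown culture lay above every control culture. The means were 9.61 ± 0.596 and 12.7 ± 0.893 CPM (SD, n = 3), and the log2 fold change was 0.40 (SE 0.10). VEGFA, the chief angiogenic ligand, moved the other way and by less, from 24.6, 24.2 and 25.9 CPM to 22.4, 20.7 and 21.8 CPM. Its groups did not overlap either, but the log2 fold change of -0.21 (SE 0.075) did not reach the fold threshold of 0.25. VEGFB, a ligand of FLT1, was at 88.9, 83.1 and 73.3 CPM in control cultures and at 77.0, 78.2 and 74.0 CPM after knockdown. The lowest VEGFB value belonged to a control culture, the groups overlapped, and the log2 fold change was -0.097 (SE 0.061). VEGFA exons overlap an antisense transcript, whereas VEGFB and VEGFC exons overlap no other annotated gene. Gene counts do not separate the splice forms of VEGFA.

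Neither VEGF receptor among the members was expressed at a level that allows a comparison of the groups. KDR had 0 counts in all 6 cultures, which allows at most 0.0849 to 0.106 CPM per culture (3 counts, counting error only). FLT1 had 10, 12 and 4 counts in control cultures and 6, 11 and 4 counts in TAK1 knockdown cultures. Its groups overlapped fully, and the log2 fold change of -0.41 had an SE of 0.59, so a difference was not detectable at this depth. Counts per gene do not separate the membrane form of FLT1 from the soluble one.

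The neuropilins differed from each other in how far they moved. NRP2 lies on chromosome 2 from 205681990 to 205798133 in GRCh38 and encodes the co-receptor that pairs with FLT4 for VEGFC and with plexins for SEMA3F. It was at 17.5, 18.7 and 18.9 CPM in control cultures and at 11.1, 8.24 and 10.1 CPM in TAK1 knockdown cultures. All knockdown values lay well below all control values, with means of 18.4 ± 0.749 and 9.80 ± 1.46 CPM (SD, n = 3). The log2 fold change was -0.91 (SE 0.10). NRP1, the co-receptor of KDR and of SEMA3A, was at 9.53, 9.08 and 8.34 CPM in control cultures and at 5.81, 7.11 and 8.88 CPM after knockdown. The third knockdown culture lay within the control range, and the log2 fold change was -0.30 (SE 0.13). The coefficient of variation of NRP1 was 6.72% among control cultures and 21.2% among knockdown cultures, where counting error alone gives 6.07% and 6.48%. Without replicate 3 of the knockdown cultures, NRP1 passed both thresholds at -0.48, and without replicate 1 its log2 fold change was -0.17. Exons of both neuropilin genes overlap an antisense transcript.

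The angiopoietin axis was low in RD cells, and its best expressed ligand was the member that moved most. The ANGPT2 gene occupies 6499632 to 6563409 of chromosome 8, minus strand. It had 61, 55 and 43 counts in the control cultures and 20, 14 and 9 counts in the TAK1 knockdown cultures. These are 2.15, 1.75 and 1.39 CPM against 0.684, 0.396 and 0.273 CPM, so the highest knockdown culture had less than the lowest control culture. The log2 fold change was -1.97 (SE 0.36), and it ranged from -2.37 to -1.73 over the alternative settings. ANGPT2 lies within MCPH1 on the opposite strand and shares exonic bases with it. MCPH1 itself went from 24.1 to 20.0 CPM, a log2 fold change of -0.27. Its part in the ANGPT2 counts was not tested. ANGPT1, the agonist of TEK, had 1 count in the second knockdown culture and 0 in the other 5 cultures. TEK, the receptor of both, was at 2.85, 3.65 and 2.82 CPM in control cultures and at 1.68, 2.69 and 2.24 CPM after knockdown. The knockdown cultures all lay below the control cultures, but the second of them came close to the lowest control culture. TEK had a log2 fold change of -0.49 (SE 0.21), and TEK passed both thresholds only without replicate 2 of the knockdown cultures (-0.66) and with a replicate block (-0.50).

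**Figure D2:**
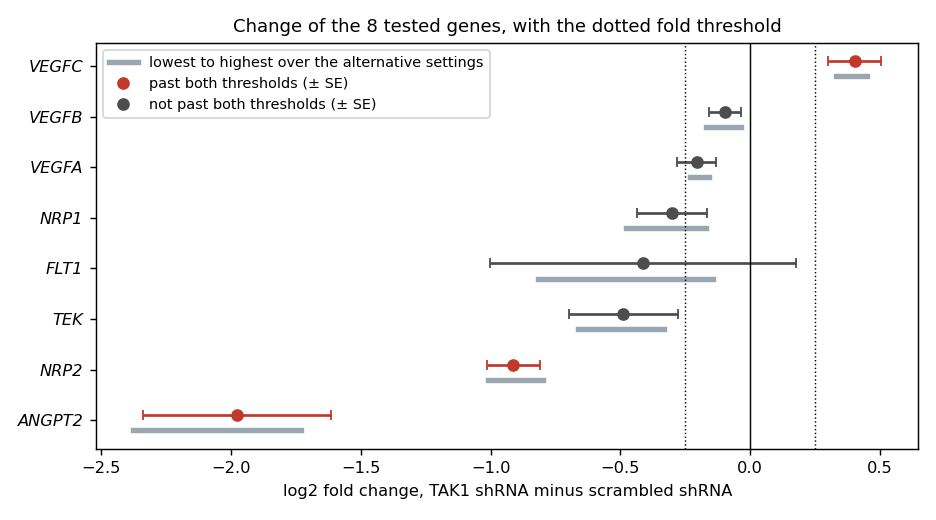
Log2 fold change of TAK1 shRNA minus scrambled shRNA cultures (horizontal axis) for the 8 tested genes, as points with standard errors, above grey bars from the lowest to the highest value over the alternative settings. ANGPT2, NRP2 and VEGFC lie outside the dotted lines at 0.25 with their whole grey bars, and FLT1 has the widest error at 0.59.

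The knockdown cultures did not share a single order across these genes. Replicate 1 of the knockdown cultures had the lowest NRP1 and TEK and the highest NRP2 and ANGPT2 of the 3. The coefficient of variation of NRP2 was 4.08% in control and 14.8% in TAK1 knockdown cultures, against 4.24% and 5.63% from counting alone. For ANGPT2 it was 21.3% and 46.8%, against 13.7% and 26.4%. VEGFB went the other way, at 9.60% and 2.80%. For VEGFA the coefficient was 3.67% and 3.92%, close to the 3.64% and 3.78% that counting gives. Over whole libraries, chi-square per degree of freedom between 2 cultures was 2.85 to 4.85 in control and 5.89 to 8.33 in knockdown cultures. A wider spread among knockdown cultures was thus not particular to these genes.

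Levels of different genes were compared per length, as CPM per kilobase of the MANE Select transcript (RPKM). In control cultures the order was VEGFB at 45.3 ± 4.35, VEGFA at 6.91 ± 0.253, VEGFC at 4.25 ± 0.264, NRP2 at 2.77 ± 0.113, NRP1 at 1.59 ± 0.107, TEK at 0.664 ± 0.101, ANGPT2 at 0.335 ± 0.0713 and FLT1 at 0.0404 ± 0.0193 RPKM (SD, n = 3). No neighbours in this order overlapped within 1 SD. VEGFB was thus the prevailing VEGF transcript among the 3, at percentile 87.2 of the tested genes with a MANE Select length, while VEGFA lay at percentile 42.7 and ANGPT2 at percentile 4.86. In TAK1 knockdown cultures VEGFA at 5.99 ± 0.235 and VEGFC at 5.61 ± 0.395 RPKM came within 1 SD of each other, as did NRP2 at 1.48 ± 0.219 and NRP1 at 1.29 ± 0.273 RPKM. With the total exon length in place of the MANE Select transcript, VEGFC stood above VEGFA already in control cultures (2.13 times its level, against 0.616 times), since annotated VEGFA exons span 14431 bases against 3609 in that transcript. The other members kept their places.

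**Figure D3:**
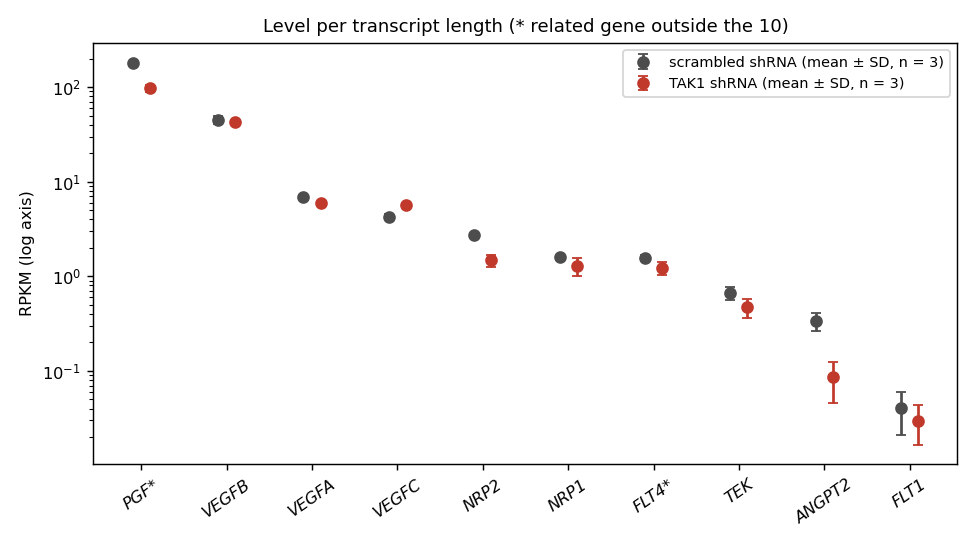
Level per transcript length in RPKM (log axis) for the 8 tested genes and for PGF and FLT4, as mean and SD of 3 scrambled shRNA and 3 TAK1 shRNA cultures. At the MANE Select length PGF stands above VEGFB in both groups, and the levels fall to 0.0404 RPKM for FLT1 in control cultures.

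Ratios within a culture do not depend on library scaling. VEGFC reached 0.666, 0.602 and 0.581 of the VEGFA level per length in control cultures and 0.882, 0.927 and 1.00 of it in TAK1 knockdown cultures, without overlap. The share of VEGFC in the summed level of the 3 ligands was 7.55% ± 0.466 in control and 10.4% ± 0.875 in knockdown cultures (SD, n = 3). The ratio of NRP2 to NRP1 was 1.56, 1.75 and 1.92 in control cultures and 1.62, 0.984 and 0.962 after knockdown. The first knockdown culture therefore lay inside the control range, and the groups overlapped. The ratio of ANGPT2 to TEK was 0.670, 0.425 and 0.439 in control cultures and 0.363, 0.131 and 0.108 in TAK1 knockdown cultures. These groups did not overlap, although the gap between them was narrow.

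**Figure D4:**
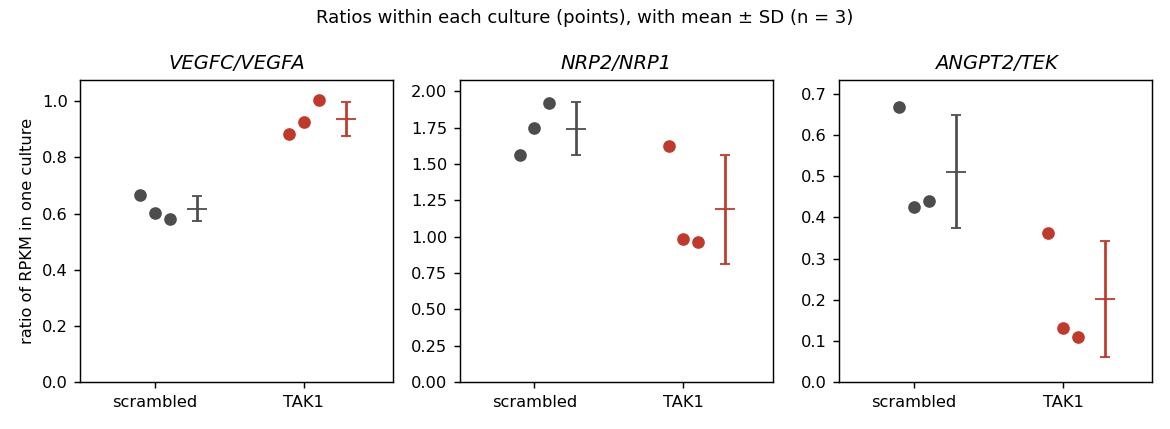
Ratios of RPKM within each culture (vertical axes from 0) for VEGFC to VEGFA, NRP2 to NRP1 and ANGPT2 to TEK, as points with the mean and SD of 3 scrambled shRNA and 3 TAK1 shRNA cultures. The VEGFC to VEGFA ratio lies between 0.581 and 0.666 in control and between 0.882 and 1.00 in TAK1 knockdown cultures, and the NRP2 to NRP1 points overlap.

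The start regions of the members were compared for short motifs in RefSeq promoter sequences (GRCh38.p14), which held an entry for 6 of the 10 genes, FLT1, KDR, NRP2, TEK, VEGFB and VEGFC. The 250 bases before each start were searched on both strands, and overlapping matches were counted apart. A GC box, GGGCGG, was found in 5 of the 6 genes, all but TEK, against 42.6% of 35116 promoters. NRP2 and VEGFC, which moved in opposite directions, both had GC boxes and GC contents of 70.0% and 74.0%, where the median promoter had 58.0%. The E-box CANNTG occurred in 4 of the 6 genes and in 61.8% of all promoters, and TATAAA in FLT1 alone and in 10.7% of all promoters. There were 0 matches in the 6 genes to the hypoxia response core ACGTG, to the AP-1 letters TGANTCA and to the TEAD letters GGAATG, which 18.5%, 6.57% and 11.9% of all promoters held. Windows of 30 bases are shown for the member that was higher, for one that was lower, and for the low receptors FLT1 and TEK, each on its own gene's strand with the match in capitals. They lie at chr4:176793094-176793123 (VEGFC, GC box), chr2:205682388-205682417 (NRP2, GC box), chr13:28495142-28495171 (FLT1, TATAAA) and chr9:27109324-27109353 (TEK, E-box).
VEGFC: cgcaggggacagGGGCGGggagggagagat
NRP2: ggaacacagaagGGGCGGgccctgagccgg
FLT1: ctggggaaaggtTATAAAtcgcccccgccc
TEK: ccctgctgatacCAAATGcctttaagatac

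By the root mean square difference of centred log2 CPM over the 6 cultures, the tested genes closest in pattern to VEGFC were SCARB2 (0.025), SFMBT2 (0.026), FYCO1 (0.029), IGFBP5 (0.029) and TBX2 (0.030). Those closest to ANGPT2 were TRGV5P (0.17), STYK1 (0.20), ARC (0.25), AL139241.1 (0.28) and PTK6 (0.29). Both sets rest on the same 6 cultures as the members.

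The other genes of the pathway were taken from lists by role, chosen with earlier results of these data known. Genes named from the lists were mostly those with the largest changes. Their adjusted p-values cover all genes tested and describe single genes, not the lists. Of 116 tested genes on these lists, 13 were upregulated and 31 were downregulated, with 72 not past the thresholds. Across all genes tested, 11.8% passed as higher and 11.3% as lower, and each count per list below stands beside these shares. Whether a list differed from them was not tested. Their median log2 fold change was -0.12. Placental growth factor, PGF, a ligand of FLT1 and neuropilins, was the most abundant VEGF family transcript per MANE Select length, at 180 ± 5.12 RPKM in control cultures. Its annotated exons span 5804 bases against 1740 in that transcript, so its rank against VEGFB depends on the length used. PGF fell from 320, 315 and 303 CPM to 185, 158 and 164 CPM, with all knockdown cultures below all control cultures. Its log2 fold change was -0.89 (SE 0.053, adjusted p = 2.47e-12). FLT4, the VEGFC receptor, had 9.09 ± 0.650 CPM in control and 7.21 ± 1.12 CPM in TAK1 knockdown cultures (SD, n = 3), and the groups overlapped. Its log2 fold change was -0.34 (adjusted p = 0.0399), and the call was lost without replicate 1 or 3 of the control or replicate 2 or 3 of the knockdown cultures (-0.32 to -0.25), with scaling by library size alone (-0.29) and with upper-quartile normalization (-0.32). VEGFD was not tested, with 1 to 5 counts per culture. Of the 5 tested genes among angiopoietin-like genes, TIE1 and VE-PTP, 0 passed in either direction with edgeR, and 0 with DESeq2 or limma voom. At an unadjusted p under 0.05 the count was 1 with edgeR, 0 with DESeq2 and 1 with limma voom.

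Neuropilin ligands and plexins moved in both directions, with 3 of 11 tested genes upregulated and 1 downregulated. SEMA3D rose by 0.89 (adjusted p = 2.23e-09) and SEMA3B by 0.64 (adjusted p = 0.00063) on the log2 scale, and SEMA3A, a repulsive guidance cue that binds NRP1, had a log2 fold change of -0.47 (adjusted p = 1.26e-08). SEMA3B exons overlap an antisense gene. Among genes for VEGF-C processing, FURIN, a protease that cleaves the VEGFC precursor, rose from 89.3 ± 2.78 to 125 ± 9.69 CPM (log2 fold change 0.48, adjusted p = 2.04e-07), and the other 3 tested genes did not pass. CCBE1 and ADAMTS3, which act together in the final cleavage of VEGFC, had 0 to 6 counts per culture. ADAMTS14, on the same list and not past the thresholds, was at 16.6 ± 0.694 CPM in control and 15.9 ± 2.33 CPM in knockdown cultures (log2 fold change -0.068).

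Signaling adaptors and kinases downstream of these receptors had 3 of 23 genes up and 5 down. The focal adhesion adaptor PXN had a log2 fold change of -0.62 (adjusted p = 1.5e-09) and the phospholipase PLCG2 of -0.80 (adjusted p = 0.000874), while the kinase genes SRC and PIK3CA had 0.35 and 0.27 (adjusted p = 7.17e-05 and 0.00282). The third, NOS3, averaged under 1 CPM in both groups and passed the filter only through the knockdown cultures, where it was higher. NOS3 had no adjusted p with DESeq2, which called 2 genes of this list as higher. PIK3CA did not reach the fold threshold when control replicate 3 or knockdown replicate 2 or 3 was left out (0.22 to 0.25). In the list for hypoxia sensing, the pathway that controls VEGFA transcription in low oxygen, 4 of 10 genes were down and 1 was up. HIF1AN, an inhibitor of HIF1A activity, fell by 0.80 (adjusted p = 1.44e-11) and the prolyl hydroxylase EGLN3 by 0.77 (adjusted p = 0.00262). HIF1A itself and ARNT were also called lower, at -0.27 and -0.26 (adjusted p = 0.00012 and 0.00079). EGLN2 was higher by 0.44 (adjusted p = 0.0268) and lost the call without replicate 2 or 3 of the control or replicate 1 of the knockdown cultures (0.35 to 0.46). Of 26 hypoxia-inducible targets, 7 were down, led by NDRG1 at -1.12 (adjusted p = 7.21e-11) and the collagen crosslinker LOX at -0.59 (adjusted p = 5.6e-07). Another 4 were up, led by the mTOR inhibitor DDIT4 at 0.48 (adjusted p = 3.29e-07) and MXI1 at 0.43 (adjusted p = 4.65e-05). HIF1A, HIF1AN, EGLN2, NDRG1, LOX, MXI1, PXN, PLCG2 and PIK3CA share exonic bases with another annotated gene, so their counts are less certain.

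Other angiogenic factors included 7 downregulated genes of 19 and 1 upregulated gene. APLN, which encodes the endothelial growth peptide apelin, fell from 23.5 ± 1.39 to 7.92 ± 0.870 CPM, a log2 fold change of -1.57 (adjusted p = 4.86e-12). PDGFB fell from 2.81 ± 0.444 to 0.908 ± 0.395 CPM, at -1.61 (adjusted p = 6.69e-05), whereas PDGFC rose by 0.83 (adjusted p = 3e-11). Among 9 tested angiogenesis inhibitors 3 were down and the other 6 did not pass. VASH1 and TIMP3 had log2 fold changes of -0.42 and -0.35 (adjusted p = 7.38e-08 and 1e-05). Of 8 VEGFA mRNA stability factors, HNRNPD and HNRNPL were lower, at -0.31 and -0.27 (adjusted p = 8.71e-06 and 2.85e-05), and the other 6 did not pass. HNRNPL lost its call with scaling by library size alone (-0.22). Exons of VASH1, HNRNPD and HNRNPL overlap another annotated gene.

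**Figure D5:**
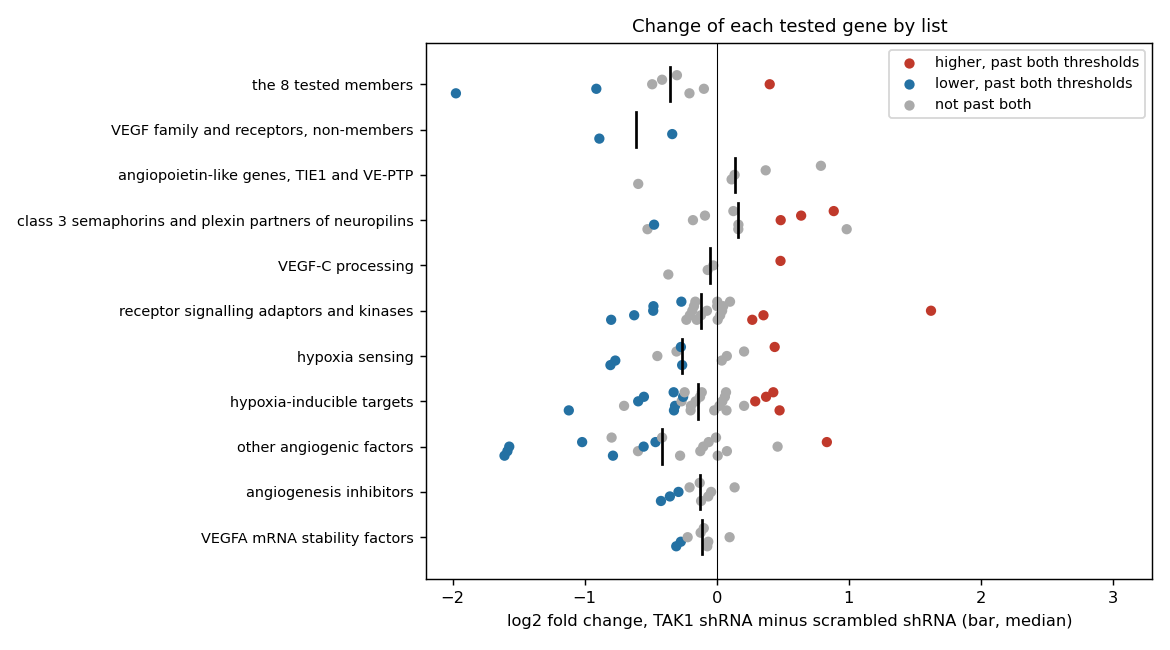
Log2 fold change of TAK1 shRNA minus scrambled shRNA cultures (horizontal axis) for each tested gene, by list, with the median of each list as a black bar and colors for genes past both thresholds. The 8 members have a median of -0.36, and the list of semaphorins and plexins holds genes on both sides of 0.

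Because these receptors and ligands are known from endothelium, its markers were checked. Of 12 endothelial markers, 2 had a mean of at least 1 CPM, and CDH5, ERG, MMRN1 and PLVAP had 0 counts in every culture. The summed level of the list ran from 47.3 to 51.5 CPM in control cultures and from 68.7 to 79.9 CPM in TAK1 knockdown cultures. EGFL7 and CLDN5, named after their values were seen, made up most of it. They were the 2 called higher of the 4 endothelial markers tested, and 0 were called lower. TIE1 and ESAM, both under 1 CPM, had log2 fold changes of -0.59 and -0.45 and did not pass. The median over the 4 was -0.050. ROBO4, whose exons overlap antisense transcripts, was not tested, with means of 0.533 CPM in control and 0.167 CPM in knockdown cultures. Leukocyte markers summed to at most 1.30 CPM in any culture. Of the 6 epithelial markers 2 reached 1 CPM, KRT18 and KRT8, whose exons overlap. The 6 summed to 56.9 to 63.0 CPM in control and to 27.7 to 31.2 CPM in TAK1 knockdown cultures, most of it KRT18. KRT18 went from 56.1 ± 3.61 to 26.4 ± 1.10 CPM (SD, n = 3). KRT8, at 3.74 and 2.67 CPM, did not pass, and KRT19 and CDH1 had 0 counts in every culture. The 7 pericyte and smooth muscle markers with a single row summed to 1044 to 1136 CPM in control and to 1123 to 1317 CPM in knockdown cultures, most of it NOTCH3.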

How the data were processed

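Poly(A)-enriched RNA from 3 scrambled shRNA and 3 TAK1 shRNA cultures of RD cells was sequenced by the authors, who deposited raw counts per gene after CASAVA base calling, read filtering and STAR alignment to GRCh38. The counting program, annotation release, strand use and treatment of reads with several matches are not given in the sources used here, so overlapping and antisense genes may share reads. Whether the replicates came from separate transductions is not stated, and p-values measure the spread between these samples.

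Counts were filtered by edgeR's default filter, scaled with TMM factors (trimmed mean of M-values) and compared with edgeR 4.0.16 quasi-likelihood tests in R 4.3.3. Benjamini-Hochberg adjustment covered all 15935 genes tested. A gene was called at an adjusted p under 0.05 if its log2 fold change was also 0.25 or more in size. Alternative tests were limma voom 3.58.1 and DESeq2 1.42.0. The tests were checked on simulated data. Members and lists were chosen with earlier results of these data known. All members are named, with MAP3K7, and up to 2 called genes in each direction per list averaging 1 CPM or more and with the largest log2 fold change. HIF1A, ARNT, ADAMTS14, TIE1, ESAM, ROBO4, NOTCH3, KRT18 and KRT8 were named in addition, after their values were seen. MCPH1, which is on no list, was named for its overlap with ANGPT2. The 5 genes closest in pattern were sought, at a pseudocount of 0.1 CPM, for the called member with the largest change in each direction. Lengths and overlaps came from GENCODE 44. CYR61 and CTGF stood for CCN1 and CCN2.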

Additional observations from a re-analysis of the deposited data

How the results depend on the processing

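ANGPT2, NRP2 and VEGFC kept their direction under each alternative in which they were tested and stayed called under each but a fold threshold of 0.5, which VEGFC missed, with log2 fold changes from -2.37 to -1.73, from -1.01 to -0.80 and from 0.33 to 0.45. ANGPT2 was left untested when 10 counts were required in each sample, so that 1 member was called lower instead of 2. That setting called 1749 of 14529 genes lower. VEGFA ranged from -0.23 to -0.16 and VEGFB from -0.17 to -0.034, and VEGFB was called under no alternative and VEGFA only without a fold threshold, where 3 members were called lower. At a fold threshold of 0.5 members called higher numbered 0, other pathway genes 4 higher and 14 lower, and all genes 735 higher and 680 lower. Without a fold threshold 2734 genes were called lower. With one culture left out, members called lower numbered 2 to 3 and other pathway genes called higher 9 to 12. Over all genes, 1675 to 1931 were then called lower and 1582 to 1810 higher. With scaling by library size alone 62.9% of all calls were higher, against 51.0% with TMM, and FLT4 (-0.29) and HNRNPL (-0.22) lost their calls. FLT4 (-0.32) also lost it with upper-quartile normalization.

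Same-numbered cultures of the 2 groups correlated in their deviations at 0.128, 0.0731 and 0.0498 over 13477 genes. Cultures with different numbers were not compared, so this does not settle whether the numbers mark pairs. In the main test the numbers were not taken as pairs. With the replicate block, members called lower numbered 3, since TEK passed at -0.50, members called higher 1, and MAP3K7 had a log2 fold change of -1.30. The order of levels by total exon length was added after the data were seen. Depth limits FLT1, ANGPT1 and KDR.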

Other observations

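CLDN5, a tight junction gene known from endothelium, was at 6.15, 5.78 and 5.64 CPM in control cultures and at 21.0, 18.6 and 16.3 CPM in TAK1 knockdown cultures. Its log2 fold change of 1.67 had a standard error of 0.11 (adjusted p = 1.37e-11), with CDH5 and ERG at 0 counts in all 6 cultures. EGFL7 rose from 41.1 ± 1.65 to 52.4 ± 4.33 CPM (SD, n = 3). NOS3, the endothelial nitric oxide synthase downstream of VEGF receptors, had a log2 fold change of 1.62 at a level of 0.0973 to 0.222 CPM in control and 0.394 to 0.718 CPM in knockdown cultures (adjusted p = 0.0219), near the limit of 3 counts in the control cultures. Its edgeR adjusted p ran from 0.0186 to 0.124 over the alternatives and missed 0.05 without a filter on low counts (0.0511), without replicate 1 or 3 of the control and without replicate 1 of the knockdown cultures (0.0622 to 0.124). DESeq2 gave it no adjusted p, with an unadjusted p of 0.0127. Only the knockdown cultures reached the level that edgeR's default filter requires, so NOS3 was tested through the group in which it was higher. Its p-values therefore do not stand as support for the rise. NOS3 shares exonic bases with ATG9B on the opposite strand. These 3 genes were named after their values were seen.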
